A study of Homo sapiens with 8 samples.

Results

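The genes described here are 10 targets of the tumour suppressor p53 that stop the cell cycle or feed back on p53 itself: CDKN1A, SFN, GADD45A, PLK2, PLK3, CCNG1, PPM1D, MDM2, BTG1 and ZMAT3. They were chosen by name and found through the gene symbols of the array's probes, which gave 16 of 48803 probes and 10 of 18852 genes with a single symbol. Illumina HumanHT-12 v3 BeadChips measured RNA of HCT116, a human cell line grown from a colon carcinoma, in 8 samples that form 4 groups of 2. Every sample had been transfected, with a non-targeting siRNA or with siRNA to TAF3, which encodes a part of TFIID, the complex that places RNA polymerase II at promoters. Doxorubicin, which traps topoisomerase on DNA and so causes breaks, was added 48 hours later at 0.5 µM for 24 hours, or was not added. The series title places the work in a study of how TAF3, which binds histone H3 trimethylated at lysine 4, takes part in selective gene activation. Untreated arrays carry the replicate numbers 1 and 3 and doxorubicin arrays 2 and 4. Separate cultures are not stated for replicates, so every p-value rests on array-to-array spread that may be technical alone.

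p53 is a transcription factor that is kept scarce in resting cells and accumulates after DNA damage, when it binds response elements near its target genes and raises their transcription. Some targets halt the cell cycle directly. CDKN1A encodes p21, an inhibitor of cyclin-dependent kinases and of PCNA, SFN encodes the 14-3-3 sigma protein, which holds mitotic kinases and phosphatases in the cytoplasm, and GADD45A is a stress protein that restrains the mitotic kinase CDK1. Other targets close a feedback loop. MDM2 is the ubiquitin ligase that marks p53 for degradation, PPM1D is the phosphatase WIP1, which reverses damage signalling, and cyclin G1 (CCNG1) recruits a phosphatase that activates MDM2.

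Start-site sequences from RefSeq (GRCh38.p14) were found for 9 of the 10 genes, as 14 windows of 300 bases that run from 250 bases before to 50 bases after each start site. The p53 consensus decamer, of which a response element holds a pair, was searched along with TATAAA and GGGCGG, each on both strands. TATATA was added after the sequences had been seen. The sequences below are the stretches just before 4 start sites, shown for the matches they carry. Capitals mark p53 decamers in MDM2, overlapping p53 decamers and TATATA in PLK2, TATAAA in BTG1 and GGGCGG in CDKN1A, where the last copies overlap by 1 base. MDM2 is shown at a start site within the gene, downstream of its first, at chr12:68808907-68809016 on the plus strand. PLK2 lies at chr5:58460087-58460226 on the minus strand, BTG1 at chr12:92145847-92145906 on the minus strand, and CDKN1A at chr6:36678604-36678713 on the plus strand.
MDM2: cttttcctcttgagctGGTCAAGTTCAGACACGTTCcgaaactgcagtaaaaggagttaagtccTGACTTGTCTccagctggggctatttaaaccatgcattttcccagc
PLK2: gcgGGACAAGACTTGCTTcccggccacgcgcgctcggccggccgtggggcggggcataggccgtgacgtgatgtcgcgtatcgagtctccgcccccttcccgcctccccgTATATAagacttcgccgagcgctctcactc
BTG1: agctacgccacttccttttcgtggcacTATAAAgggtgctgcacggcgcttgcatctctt
CDKN1A: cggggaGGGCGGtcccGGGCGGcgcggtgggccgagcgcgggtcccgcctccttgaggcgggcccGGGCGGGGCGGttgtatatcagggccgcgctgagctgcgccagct

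In the MDM2 window, decamers with 1 letter off the consensus began at positions -94, -84 and -46 from the start site, and the first of them abut. The same stretch lies in the window of a neighbouring MDM2 start site, so the windows are not independent. A decamer with every letter matched was found in 1 of the 14 windows, that of PLK2 at position -132, and in 6.63% of 35116 windows of all genes. With 1 letter off allowed outside the central C and G, 8 of 14 windows (in 5 genes) and 45.1% of all windows held a decamer. TATAAA was found in BTG1 alone among these genes, at position -33, and in 11.5% of all windows. TATATA was found in PLK2 alone, at position -30, and in 3.99% of all windows. GGGCGG was found in 13 of 14 windows of these genes and in 45% of all windows. A match describes letters only, and elements outside these windows were not searched.

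Each array had a median signal of 73.9, and between 17428 and 19533 probes lay above its background threshold of 81.3 to 87.3. All 6 epithelial markers (EPCAM, KRT8, KRT18, KRT19, CDH1 and CLDN7) lay above background on all arrays. Above background on all arrays were 1 of 5 fibroblast markers (COL1A1), 0 of 4 immune and 1 of 3 endothelial markers (PECAM1), while PTPRC, CD3E, CDH5, DCN, LUM and COL1A2 were below it on all arrays. The fibroblast list's summed signal was 557 to 619 on control siRNA doxorubicin arrays and 482 to 512 on the other arrays. The immune list's was 345 to 373 and 292 to 316, and their part in the results was not tested. The targeted transcript lay near background. The brighter of 2 TAF3 probes had signals of 78.1 and 81.4 with control siRNA untreated, 89.3 and 101.0 with control siRNA and doxorubicin, 62.7 and 76.0 with TAF3 siRNA untreated, and 76.6 and 67.3 with TAF3 siRNA and doxorubicin. It was above background on the control siRNA doxorubicin arrays only, and TAF3 was called neither untreated (log2 change -0.21 ± 0.16, adjusted p = 0.653) nor with doxorubicin (-0.37 ± 0.16, adjusted p = 0.167). These probes therefore do not show the depth of the knockdown, and the groups are named by the siRNA used.

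Signals quoted below are the deposited linear probe signals. Changes are differences of log2 signal after normexp background correction and quantile normalization, written with the standard error of a limma fit to all 8 arrays. A gene was called at a Benjamini-Hochberg adjusted p under 0.05 over 16348 features. The brightest detected probe stood for a gene. In bulk RNA, a change in the share of responding cells and a change in RNA per cell cannot be told apart.

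Doxorubicin with control siRNA raised 9 of the 10 genes, against 17.1% of all features called, 9.07% higher and 8% lower. PPM1D, CDKN1A and SFN rose the most, by 5.04-fold, 4.87-fold and 4.54-fold, PLK2, GADD45A and CCNG1 by 2.83-fold, 2.59-fold and 2.32-fold, and PLK3, BTG1 and MDM2 by 2.01-fold, 2.01-fold and 1.97-fold. PLK3 and MDM2 were below background on 1 of 2 untreated control arrays, so their folds depend on the background offset. ZMAT3, an RNA-binding zinc finger protein, was not called on its brightest probe but rose on its other probes. The deposited signals of both doxorubicin arrays lay above both untreated arrays for all 10 genes, as for 35% of all features, and below them for 0, as for 28.5% of all features. The median log2 change of the 10 genes was 1.29, and that of all features was -0.02.

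With TAF3 siRNA, doxorubicin raised 7 of the 10 genes, against 4.66% of all features called, 2.08% higher and 2.58% lower. CDKN1A rose by 4.68-fold, BTG1 by 2.98-fold, GADD45A by 2.82-fold, PPM1D by 2.81-fold, SFN by 2.74-fold, PLK2 by 2.41-fold and MDM2 by 2.26-fold. PLK3 (1.59-fold), CCNG1 (1.50-fold) and ZMAT3 (1.59-fold) did not pass. Signals of both doxorubicin arrays lay above both untreated arrays for 9 of the 10 genes, ZMAT3 being the exception, and for 19.5% of all features. They lay below for 0 of the 10 genes and for 26.9% of all features. The median log2 change of the 10 genes was 1.36 and that of all features 0.01. Both doxorubicin comparisons use different arrays, so neither shares a control with the other.

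**Figure D1:**
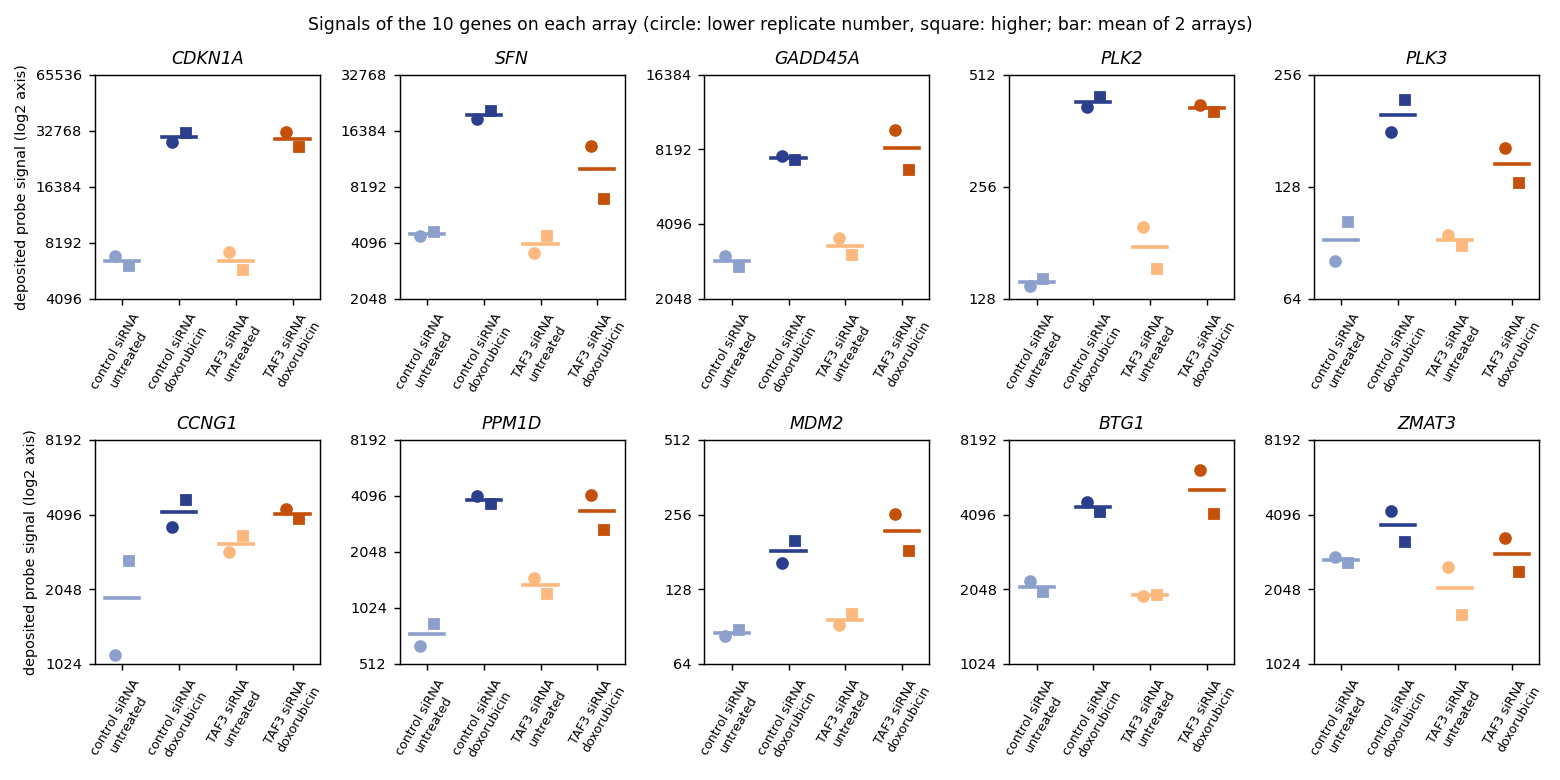
Deposited signal (vertical, log2 axis, arbitrary scanner units) of each of the 10 genes on every array, in 4 groups of 2, with circles for the lower and squares for the higher replicate number and a bar at the group mean. Doxorubicin arrays lie above untreated arrays of the same siRNA in every panel except for ZMAT3 with TAF3 siRNA.

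CDKN1A was called with either siRNA. The signal of its brighter probe was 6982 and 6102 with control siRNA untreated, 28392 and 31800 with control siRNA and doxorubicin, 7266 and 5864 with TAF3 siRNA untreated, and 32362 and 26645 with TAF3 siRNA and doxorubicin. The groups split by doxorubicin alone, and the 2 siRNAs overlapped at both conditions. The log2 change with doxorubicin was 2.28 ± 0.21 with control siRNA (limma adjusted p = 0.00154) and 2.23 ± 0.21 with TAF3 siRNA (adjusted p = 0.00422). The difference between these responses was -0.06 ± 0.29 on the log2 scale, with a 95% interval of -0.71 to 0.60 (adjusted p = 0.954).

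SFN was called with doxorubicin in either siRNA, and between siRNAs under doxorubicin. Its signal was 4428 and 4678 with control siRNA untreated, 18807 and 20866 with control siRNA and doxorubicin, 3600 and 4449 with TAF3 siRNA untreated, and 13468 and 7025 with TAF3 siRNA and doxorubicin. Doxorubicin arrays lay above untreated arrays for each siRNA, and both TAF3 siRNA doxorubicin arrays lay below both control siRNA doxorubicin arrays. The rise with doxorubicin was 2.18 ± 0.26 log2 units with control siRNA (limma adjusted p = 0.00185) and 1.46 ± 0.26 with TAF3 siRNA (adjusted p = 0.0192).

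Under doxorubicin SFN was lower by a log2 change of -1.01 ± 0.26 with TAF3 siRNA than with control siRNA (limma adjusted p = 0.0356), or 0.497 of the control level. It was the only one of the 10 genes called in that comparison, in which 13.8% of all features were called, 6.53% higher and 7.28% lower. The call ended when control siRNA doxorubicin replicate 2 (log2 change -1.05, adjusted p = 0.187), replicate 4 (-0.97, adjusted p = 0.165) or TAF3 siRNA doxorubicin replicate 4 (-0.55, adjusted p = 0.148) was left out. The same happened without either control siRNA untreated array (-1.01, adjusted p = 0.0556), on log2 of the deposited signal (-1.03, adjusted p = 0.0522) and with no filter on dim probes (-1.01, adjusted p = 0.0515). The sign was negative in all 19 alternatives, and the call was lost in 8 of them. Without doxorubicin the SFN change with TAF3 siRNA was -0.28 ± 0.26 on the log2 scale (adjusted p = 0.714).

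GADD45A had detected signal on both of its probes. The brighter read 3056 and 2755 with control siRNA untreated, 7705 and 7447 with control siRNA and doxorubicin, 3587 and 3069 with TAF3 siRNA untreated, and 9825 and 6736 with TAF3 siRNA and doxorubicin. Doxorubicin arrays were higher with either siRNA, and the TAF3 siRNA doxorubicin arrays spread around the control pair. The log2 rise was 1.37 ± 0.23 with control siRNA (limma adjusted p = 0.00588) and 1.50 ± 0.23 with TAF3 siRNA (adjusted p = 0.0124). The dimmer GADD45A probe rose by 1.67 ± 0.27 log2 units with either siRNA (adjusted p = 0.00503 and 0.013 over 20628 probes).

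The polo-like kinases PLK2 and PLK3, which act at centrosomes and in stress signalling, lay much nearer to background. PLK2 read 138 and 145 with control siRNA untreated, 419 and 445 with control siRNA and doxorubicin, 200 and 154 with TAF3 siRNA untreated, and 424 and 406 with TAF3 siRNA and doxorubicin. The doxorubicin arrays of both siRNAs overlapped, and the untreated arrays did not. PLK2 rose by 1.50 ± 0.19 log2 units with control siRNA (limma adjusted p = 0.00235) and by 1.27 ± 0.19 with TAF3 siRNA (adjusted p = 0.0117).

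PLK3 read 81.0 and 103 with control siRNA untreated, 179 and 219 with control siRNA and doxorubicin, 95 and 88.9 with TAF3 siRNA untreated, and 163 and 131 with TAF3 siRNA and doxorubicin. The first of these arrays was below background, and both TAF3 siRNA doxorubicin arrays were below both control ones. PLK3 rose by 1.01 ± 0.18 log2 units with control siRNA (limma adjusted p = 0.00836), or by 1.37 with a normexp offset of 16. With TAF3 siRNA the log2 change was 0.67 ± 0.18 (adjusted p = 0.0748), and the difference between the responses was -0.34 ± 0.26 (adjusted p = 0.597). Under doxorubicin the log2 change with TAF3 siRNA was -0.34 ± 0.18 (adjusted p = 0.249).

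PPM1D, among the feedback genes, was called with either siRNA. Its signal was 637 and 840 with control siRNA untreated, 4099 and 3691 with control siRNA and doxorubicin, 1489 and 1218 with TAF3 siRNA untreated, and 4133 and 2673 with TAF3 siRNA and doxorubicin. Both untreated TAF3 siRNA arrays lay above both untreated control arrays, while under doxorubicin the siRNAs overlapped. The log2 rise with doxorubicin was 2.33 ± 0.24 with control siRNA (limma adjusted p = 0.00154) and 1.49 ± 0.24 with TAF3 siRNA (adjusted p = 0.0151). The difference between the responses was -0.85 ± 0.34 log2 units, with a 95% interval of -1.62 to -0.08, and did not pass over all features (adjusted p = 0.301). The untreated log2 change with TAF3 siRNA was 0.74 ± 0.24 (adjusted p = 0.334).

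CCNG1 differed between the untreated control siRNA arrays. Its brighter probe read 1111 and 2669 with control siRNA untreated, 3657 and 4700 with control siRNA and doxorubicin, 2895 and 3355 with TAF3 siRNA untreated, and 4297 and 3917 with TAF3 siRNA and doxorubicin. Control siRNA untreated replicate 1 stood at 0.416 of replicate 3, below all other arrays. CCNG1 rose by 1.21 ± 0.31 log2 units with control siRNA (limma adjusted p = 0.0293), and without control siRNA untreated replicate 1 the change was 0.65 (adjusted p = 0.103). The call also ended without control siRNA doxorubicin replicate 2 (1.38, adjusted p = 0.122) or replicate 4 (1.05, adjusted p = 0.164). With TAF3 siRNA the log2 change was 0.59 ± 0.31 (adjusted p = 0.323). A second CCNG1 probe was below background on all 8 arrays.

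MDM2 was measured by 1 of its 2 probes, the other lying below background on all arrays. The measured probe read 83.1 and 87.9 with control siRNA untreated, 163 and 201 with control siRNA and doxorubicin, 91.6 and 101 with TAF3 siRNA untreated, and 257 and 182 with TAF3 siRNA and doxorubicin. The first of these arrays was below background, and doxorubicin arrays lay above untreated ones for each siRNA. MDM2 rose by 0.98 ± 0.18 log2 units with control siRNA (limma adjusted p = 0.00855) and by 1.18 ± 0.18 with TAF3 siRNA (adjusted p = 0.0124). With a normexp offset of 16 in place of 50, chosen after the data were seen because MDM2, PLK3 and PLK2 lie near background, the MDM2 changes were 1.36 and 1.54 log2 units, so their size depends on the offset.

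BTG1, an antiproliferative protein that binds the CCR4-NOT deadenylase, was called with either siRNA. Its signal was 2202 and 1994 with control siRNA untreated, 4610 and 4182 with control siRNA and doxorubicin, 1918 and 1949 with TAF3 siRNA untreated, and 6188 and 4110 with TAF3 siRNA and doxorubicin. The untreated groups did not overlap, and the TAF3 siRNA doxorubicin arrays lay on either side of the control pair. BTG1 rose by 1.004 ± 0.21 log2 units with control siRNA (limma adjusted p = 0.0141) and by 1.58 ± 0.21 with TAF3 siRNA (adjusted p = 0.00934). The difference between the responses was 0.57 ± 0.30, with a 95% interval of -0.10 to 1.24 (adjusted p = 0.418).

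**Figure D2:**
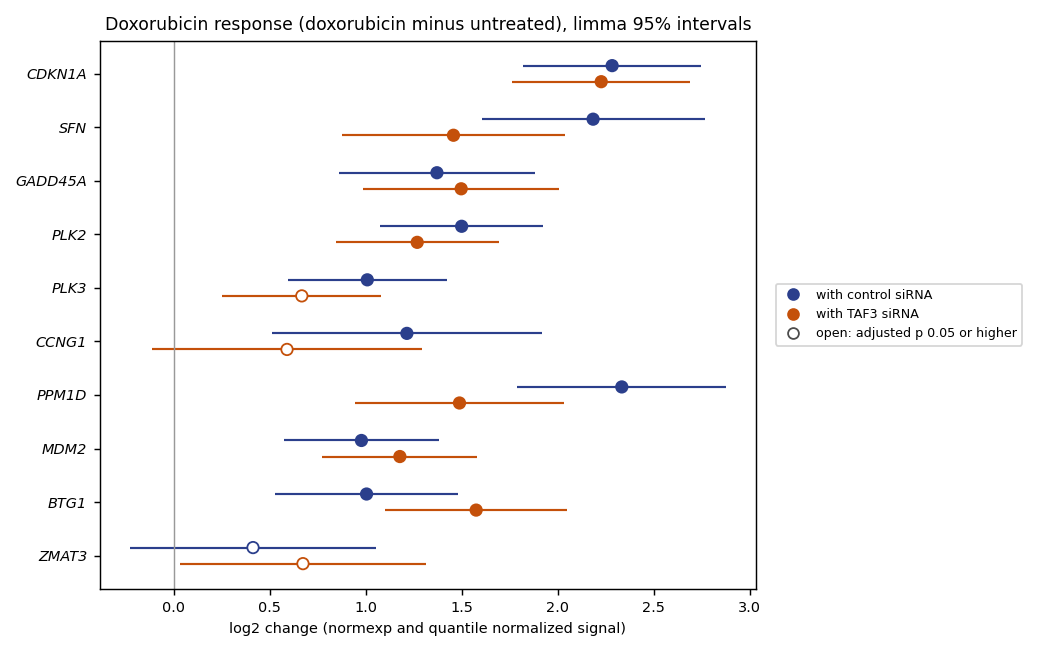
Log2 change with doxorubicin (horizontal) of the 10 genes with control siRNA and with TAF3 siRNA, as points with limma 95% intervals, filled where the adjusted p was under 0.05. All changes are above 0, and for each gene the intervals of the 2 siRNAs overlap.

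ZMAT3 depended on the probe. The brightest probe (ILMN_2361104) read 2765 and 2603 with control siRNA untreated, 4233 and 3171 with control siRNA and doxorubicin, 2525 and 1616 with TAF3 siRNA untreated, and 3291 and 2401 with TAF3 siRNA and doxorubicin. Its log2 change was 0.41 ± 0.28 with control siRNA (limma adjusted p = 0.368) and 0.67 ± 0.28 with TAF3 siRNA (adjusted p = 0.216), which became 1.10 and passed (adjusted p = 0.0283) without TAF3 siRNA untreated replicate 1. The next probe (ILMN_1865764) read 617 and 626, then 2066 and 2479, then 938 and 458, then 4065 and 2440 in the same order of groups. It rose by 1.78 ± 0.36 log2 units with control siRNA (adjusted p = 0.0116 over 20628 probes) and by 2.42 ± 0.36 with TAF3 siRNA (adjusted p = 0.0106).

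The dimmest ZMAT3 probe (ILMN_1654262) read 365 and 228 with control siRNA untreated, 1448 and 1189 with control siRNA and doxorubicin, 427 and 261 with TAF3 siRNA untreated, and 1808 and 709 with TAF3 siRNA and doxorubicin. It rose by 2.09 ± 0.43 log2 units with control siRNA (limma adjusted p = 0.0123) and by 1.85 ± 0.43 with TAF3 siRNA (adjusted p = 0.0428). All 3 probes changed in the same direction, and 2 of them passed. With the mean of its probes ZMAT3 was called with either siRNA, at 1.43 (adjusted p = 0.0211) and 1.65 log2 units (adjusted p = 0.0305), and the counts of the set became 10 of 10 with control siRNA and 8 of 10 with TAF3 siRNA.

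CDKN1A also had a dimmer probe (ILMN_1787212) with a smaller change. It read 195 and 198 with control siRNA untreated, 301 and 407 with control siRNA and doxorubicin, 137 and 161 with TAF3 siRNA untreated, and 259 and 280 with TAF3 siRNA and doxorubicin. That probe rose by 0.72 ± 0.18 log2 units with control siRNA (limma adjusted p = 0.0256 over 20628 probes) and by 0.89 ± 0.18 with TAF3 siRNA (adjusted p = 0.0267). Unlike the brighter probe, its TAF3 siRNA arrays lay below the control arrays of the same treatment without overlap, but neither siRNA difference passed (adjusted p = 0.389 untreated and 0.336 with doxorubicin).

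**Figure D3:**
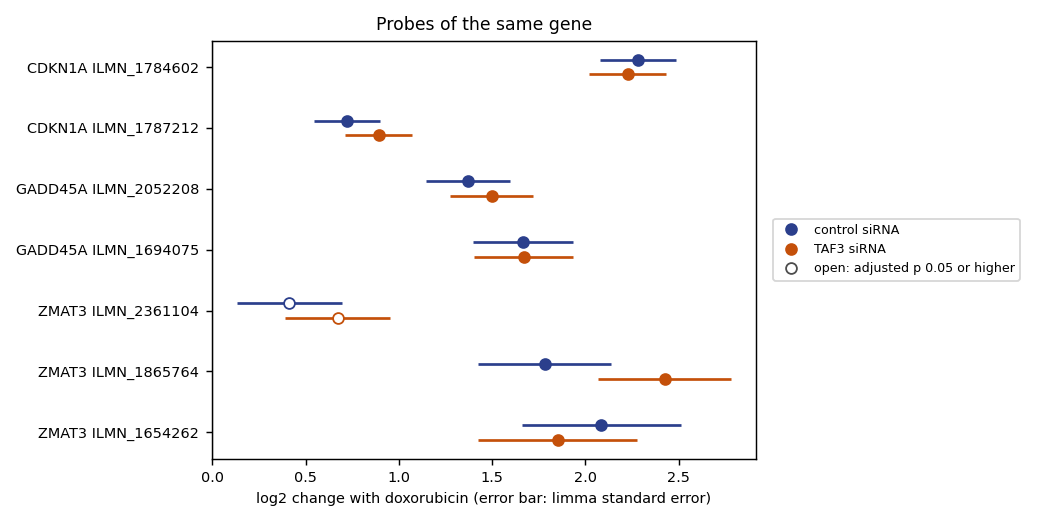
Log2 change with doxorubicin (horizontal) for each detected probe of CDKN1A, GADD45A and ZMAT3, with limma standard errors, for both siRNAs, filled where the adjusted p over probes was under 0.05. The brightest ZMAT3 probe shows 0.41 and 0.67, and its other probes 1.78 to 2.42.

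Without doxorubicin, TAF3 siRNA changed none of the 10 genes by the test, as it changed 0% of all features. By limma 0 features passed and 1974 had an unadjusted p under 0.05, among them PPM1D and CCNG1 (log2 change 0.71 ± 0.31). Signals with TAF3 siRNA lay above both control arrays for 5 of the 10 genes (GADD45A, PLK2, CCNG1, PPM1D and MDM2), as for 28.2% of all features. They lay below for 2 (BTG1 and ZMAT3), as for 13.3% of all features. Changes of the 10 genes ran from -0.53 log2 units for ZMAT3 to 0.74 for PPM1D, with a median of 0.04 against 0.01 over all features. For CDKN1A the untreated change was -0.06 ± 0.21 log2 units, with a 95% interval of -0.53 to 0.40.

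Under doxorubicin, the TAF3 siRNA comparison uses the same control siRNA doxorubicin arrays as the doxorubicin response with control siRNA. The log2 changes of the 9 genes other than SFN ran from -0.34 for PLK3 to 0.35 for MDM2, and none passed. No gene of the set lay above both control arrays in both TAF3 siRNA arrays, as 28.2% of all features did, and SFN and PLK3 lay below, as 33.2% of all features did. The median of the 10 genes was -0.04 and that of all features 0.03 on the log2 scale. CDKN1A differed by -0.12 ± 0.21 log2 units, with a 95% interval of -0.59 to 0.34 (limma adjusted p = 0.746). PPM1D differed by -0.11 ± 0.24 (adjusted p = 0.81), GADD45A by 0.21 ± 0.23 (adjusted p = 0.593) and PLK2 by 0.03 ± 0.19 (adjusted p = 0.932), the last of which was -0.06 on log2 of the deposited signal.

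**Figure D4:**
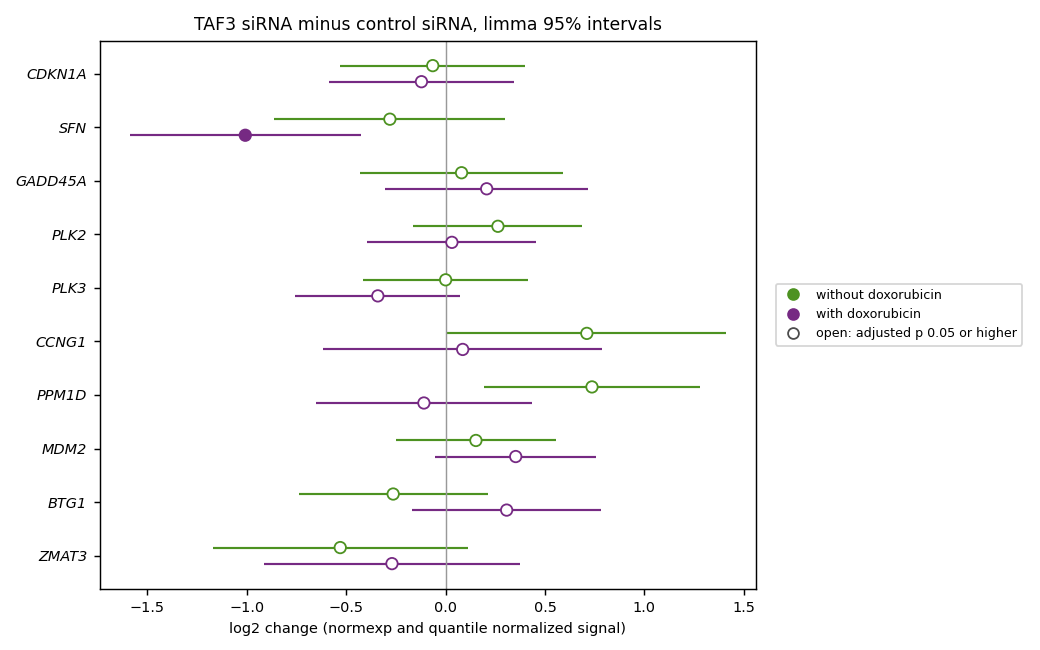
Log2 change of TAF3 siRNA against control siRNA (horizontal) for the 10 genes without and with doxorubicin, with limma 95% intervals, filled where the adjusted p was under 0.05. SFN under doxorubicin, at -1.01, is the filled point.

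The difference between siRNAs in the doxorubicin response was called for none of the 10 genes and for 0.0367% of all features, 0.0122% in the positive direction (more positive with TAF3 siRNA) and 0.0245% in the negative. Only PPM1D had an unadjusted p under 0.05. The log2 differences ran from -0.85 for PPM1D, -0.73 ± 0.36 for SFN (limma adjusted p = 0.397) and -0.62 ± 0.44 for CCNG1 (adjusted p = 0.564) to 0.57 for BTG1. Without TAF3 siRNA doxorubicin replicate 2 the SFN difference was -1.18 log2 units and passed (adjusted p = 0.0464).

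Arrays of the same group differed in the level of the set. Of the TAF3 siRNA doxorubicin arrays, replicate 2 had the higher deposited signal for 10 of 10 genes, against 59.0% of all features. Its ratio to replicate 4 ran from 1.04 for PLK2 to 1.92 for SFN. After normalization that replicate 2 array was higher for 9 of 10 genes, against 49.5% of all features, with a median log2 difference of 0.37 against -0.0049. Of the untreated TAF3 siRNA arrays, replicate 1 was higher after normalization for 8 of 10 genes, against 52.0% of all features, with a median of 0.35 against 0.02. With control siRNA and doxorubicin, the lower-numbered array was higher for 4 of 10 genes, with ratios from 0.778 for CCNG1 to 1.33 for ZMAT3. Of 14 other p53 arrest and feedback targets, 13 also had the higher signal on TAF3 siRNA doxorubicin replicate 2. The part of this gap in the results was examined only by leaving out arrays.

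The counts of called genes rested on single arrays. With control siRNA, 9 genes became 5 without control siRNA untreated replicate 1, 4 without control siRNA doxorubicin replicate 2 and 5 without its replicate 4. CDKN1A, SFN, PPM1D and PLK2 were called in all 19 alternatives. With TAF3 siRNA, 7 genes became 1, CDKN1A, without TAF3 siRNA doxorubicin replicate 2 and 3 without TAF3 siRNA untreated replicate 3. In a fit of the 2 TAF3 siRNA groups alone 0 genes and 0 features were called, while 2548 features had an unadjusted p under 0.05. Every log2 change with doxorubicin stayed above 0 in all alternatives run, for all 10 genes and both siRNAs.

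Of 25 listed relatives of these genes, 23 were tested, of which 4 rose and 0 fell with doxorubicin and control siRNA, with a median log2 change of 0.11. That is 17.4% higher, against 9.07% of all features. With TAF3 siRNA 4 rose (17.4%) and 2 fell (8.7%), against 2.08% and 2.58% of all features, with a median of 0.19. Without control siRNA doxorubicin replicate 2 or 4, 0 relatives were called with either siRNA. With doxorubicin and control siRNA, the cyclin-dependent kinase inhibitors CDKN1B (-0.08 ± 0.17) and CDKN1C (0.17 ± 0.20) were not called beside CDKN1A. The 6 other 14-3-3 genes ran from -0.43 ± 0.22 for YWHAE to 0.18 ± 0.23 for YWHAZ, with none called beside SFN. The MDM2 relative MDM4, which also restrains p53, was at -0.23 ± 0.17 (limma adjusted p = 0.398). The phosphatases PPM1A, PPM1B and PPM1G, relatives of PPM1D, ran from -0.37 to 0.12 with control siRNA. Between siRNAs under doxorubicin, 3 of the 23 relatives were higher with TAF3 siRNA (CCNG2, TOB1 and PPM1B) and 0 lower. That is 13.0% higher, against 6.53% of all features. The PPM1B log2 change was 1.07, or 0.81 without TAF3 siRNA doxorubicin replicate 4.

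In the GADD45 family more than GADD45A was called. GADD45B rose by 0.70 ± 0.18 and 0.95 ± 0.18 log2 units with control and TAF3 siRNA (limma adjusted p = 0.0307 and 0.0238). GADD45G rose by 0.82 ± 0.20 with control siRNA (adjusted p = 0.0242), and its change of 0.80 ± 0.20 with TAF3 siRNA did not pass (adjusted p = 0.0562). The mitotic kinases PLK1 and PLK4 went the other way from PLK2 and PLK3, with -0.85 ± 0.33 and -0.70 ± 0.24 with control siRNA, where neither passed. With TAF3 siRNA PLK1 fell by 1.68 on the log2 scale (adjusted p = 0.0263) and PLK4 fell by 1.39 (adjusted p = 0.0188). BTG3 rose with control siRNA (0.85 ± 0.21, adjusted p = 0.0245), as did ZMAT5 (0.80 ± 0.19, adjusted p = 0.0214).

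CCNG2, the second G-type cyclin, moved differently from CCNG1. Its signal was 436 and 324 with control siRNA untreated, 247 and 231 with control siRNA and doxorubicin, 222 and 335 with TAF3 siRNA untreated, and 669 and 418 with TAF3 siRNA and doxorubicin. It rose with doxorubicin by 1.02 ± 0.24 log2 units with TAF3 siRNA (limma adjusted p = 0.0484), while the change with control siRNA was -0.78 ± 0.24 (adjusted p = 0.0563). The difference between these responses, 1.80 ± 0.34, did not pass (adjusted p = 0.0917). Under doxorubicin CCNG2 was higher with TAF3 siRNA by 1.23 ± 0.24 (adjusted p = 0.0157). The rise with TAF3 siRNA was not called when any array other than TAF3 siRNA doxorubicin replicate 4 was left out (adjusted p from 0.0534 to 0.237).

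**Figure D5:**
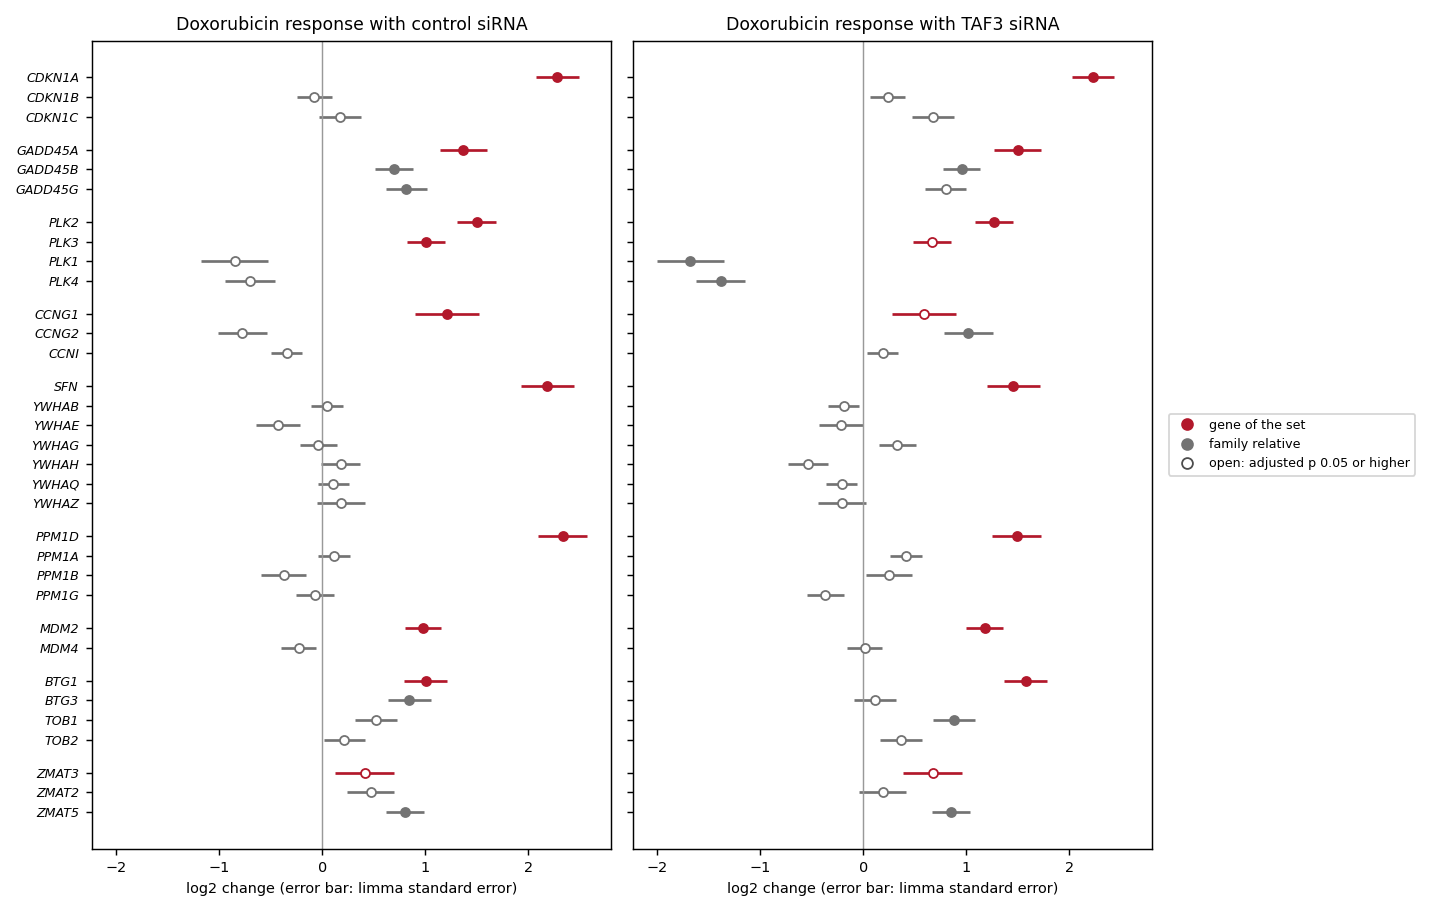
Log2 change with doxorubicin (horizontal, limma standard errors) of the 10 genes (red) and their tested family relatives (grey), with control siRNA on the left and TAF3 siRNA on the right, filled where the adjusted p was under 0.05. CDKN1A, SFN, PPM1D, MDM2, GADD45A, PLK2 and BTG1 stand to the right of all their relatives shown with either siRNA. ZMAT3 lies to the left of ZMAT5 with either siRNA, and CCNG1 to the left of CCNG2 with TAF3 siRNA.

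Of 14 other p53 targets of arrest and feedback tested, 8 rose and 0 fell with doxorubicin and control siRNA. The median log2 change of the 14 was 1.18, and 8% of all features fell. The 8 that rose were 57.1% of the 14, against 9.07% of all features. They included SESN1 (2.66 ± 0.40), SESN2 (1.75 ± 0.26), which restrain growth signalling through mTORC1, PRDM1 (1.50 ± 0.22) and PIDD1 (2.35 ± 0.42). With TAF3 siRNA 4 rose, SESN1 (2.13 ± 0.40), PRDM1 (1.51 ± 0.22), TOB1 (0.88 ± 0.20) and CCNG2, or 28.6% against 2.08% of all features. TOB1 and CCNG2 were also counted among the listed relatives, so the counts of the lists are not separate. The mitotic spindle gene GTSE1 fell by 1.69 on the log2 scale, 1 of the 14 (7.14%) against 2.58% of all features. Under doxorubicin 2 of the 14 were higher with TAF3 siRNA, CCNG2 and TOB1 (0.74 ± 0.20), and 2 were lower, GTSE1 (-0.98 ± 0.23) and PIDD1 (-1.66 ± 0.42, limma adjusted p = 0.0355). That is 14.3% in each direction, against 6.53% of all features higher and 7.28% lower. PIDD1 read 1858 and 1980 with control siRNA and doxorubicin and 1075 and 309 with TAF3 siRNA and doxorubicin. Its change was -0.82 without TAF3 siRNA doxorubicin replicate 4, where it did not pass (adjusted p = 0.0798), and -2.49 without replicate 2 (adjusted p = 0.000853). Without control siRNA doxorubicin replicate 2, 0 of the 14 genes were called for doxorubicin with control siRNA or between siRNAs under doxorubicin. Without TAF3 siRNA doxorubicin replicate 2, 0 were called for doxorubicin with TAF3 siRNA. Between siRNAs under doxorubicin, SESN1 differed by 0.01 ± 0.40 (limma adjusted p = 0.989).

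No tested regulator of p53 was called higher with doxorubicin. Of 10 tested, 5 fell (50%) and 0 rose with doxorubicin and control siRNA, against 8% of all features lower and 9.07% higher. The median log2 change was -0.60, and leaving out 1 control siRNA array gave -0.69 to -0.50. Not all 5 calls were kept in those fits. The damage kinases CHEK1 (-1.13 ± 0.22) and CHEK2 (-1.03 ± 0.25), CDKN2A (-1.26 ± 0.23), whose ARF product restrains MDM2, and the kinase HIPK2 (-1.09 ± 0.25) were among the 5. With TAF3 siRNA 1 of 10 fell, CHEK1 (-1.69 ± 0.22, limma adjusted p = 0.00934), against 2.58% of all features. No regulator was called between siRNAs in either condition, against 0% of all features untreated and 13.8% with doxorubicin.

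Of 15 tested cell cycle genes (cyclins, kinases, phosphatases and PCNA), 2 rose and 2 fell with doxorubicin and control siRNA. That is 13.3% in each direction, near the 9.07% of all features higher and 8% lower. PCNA, the replication clamp bound by p21, rose by 1.07 ± 0.25 log2 units and cyclin D3 (CCND3) by 1.26 ± 0.24, while CCNA2 (-1.01 ± 0.21) and CCNB2 (-1.02 ± 0.21) fell. With TAF3 siRNA 0 rose and 6 fell, among them CCNA2 (-2.38 ± 0.21), CCNB2 (-1.92 ± 0.21) and CDK1 (-1.24 ± 0.18). That is 40% lower, against 2.58% of all features lower and 2.08% higher. The median of the 15 was -0.68, and leaving out 1 TAF3 siRNA array gave -0.90 to -0.53. Not all 6 calls were kept in those fits. Under doxorubicin 6 of 15 were lower with TAF3 siRNA, including CDK1 (-1.30 ± 0.18, limma adjusted p = 0.0075) and CCND3 (-1.28 ± 0.24, adjusted p = 0.0136). That is 40%, against 7.28% of all features. The difference between responses was called for 0 of these 15 genes, with a median of -0.91 log2 units, and for 6 features in all. On control siRNA untreated replicate 1 the deposited signal was above that of replicate 3 for only 1 of the 15 genes, with a median log2 ratio of -0.57 against -0.03 over all features. Without that array the median difference was -0.65, and without replicate 3 it was -1.19. With control siRNA 0 rose and 2 fell without the former, and 3 rose and 0 fell without the latter. Without control siRNA doxorubicin replicate 2 or 4, or TAF3 siRNA doxorubicin replicate 4, the 6 genes lower with TAF3 siRNA became 0, 1 and 2.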

How the data were processed

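The intensity values were deposited by the authors as linear probe signals, made with BeadStudio per the submitters' processing notes, with no version; other steps are not given in the sources used here. A second deposited table holds detection p-values that rise with signal, taken here as 1 minus a p-value. Its columns name no sample, so it served only for the number of arrays detecting each probe, and 8 columns of signals in it were left out. Signals went through normexp (offset 50), quantile normalization and log2. The 20628 probes detected at 0.05 on 2 or more arrays entered, with each gene given its brightest one, which left 16348 features. Symbols were updated through RefSeq gene numbers. limma 3.58.1 in R 4.3.3 fitted 4 group means with 4 residual degrees of freedom, and Benjamini-Hochberg adjustment ran within each of 5 comparisons. In simulated data of 16348 features, the doxorubicin comparison with control siRNA recovered 79 of 100 genes given a log2 change of 1 and 100 of 100 given 2, and the difference between responses recovered 32 and 97. The simulated noise was independent between features, with no effect shared across an array, so these rates do not measure the power of the real data. An array's background threshold separates probes that no array detected from probes that every array detected. The number of arrays limits the precision. All 10 genes are named, and from each other list up to 4 called genes per comparison with relatives beside their gene. Genes and lists were chosen with earlier results of these data known.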

Additional observations from a re-analysis of the deposited data

Results flagged for a closer look

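After normalization, both TAF3 siRNA arrays of BTG1 lay below the control mean without doxorubicin and above it with doxorubicin, and the difference between the responses was 0.57 log2 units. TAF3 siRNA doxorubicin replicate 4 exceeded that mean only narrowly, at 12.114 against 12.091 on the log2 scale, and its deposited signal of 4110 lay below both control siRNA doxorubicin arrays. Tested directly by limma's interaction contrast, the difference did not pass (adjusted p = 0.418).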

How the results depend on the processing

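No doxorubicin change of the 10 genes reversed under the alternatives run, and single arrays limit the counts. Leaving out 1 array gave 264 to 3425 called features and 4 to 9 of the 10 genes for doxorubicin with control siRNA, and 36 to 1630 features and 1 to 8 genes with TAF3 siRNA. For TAF3 siRNA against control it gave 0 to 313 features untreated and 3 to 3027 with doxorubicin, with 0 to 1 of the 10 genes called lower. For the difference between responses it gave 0 to 324 features and 0 to 1 genes called lower. A fit of only the compared groups called 4202 features with control siRNA, and 0 features and 0 genes with TAF3 siRNA (2548 features at an unadjusted p under 0.05). Under doxorubicin 0 genes were lower with TAF3 siRNA when log2 was taken of the deposited signal, with median centring (the same values, as array medians are equal) and with no filter. The difference between responses called 6 features, against 1 for log2 of deposited signals or median centring, 22 with no filter, 0 for probes detected on all 8 arrays (1855 at an unadjusted p under 0.05), 86 with an intensity trend and 2 with the replicate block. Deviations of same-numbered arrays correlated at -0.0256 untreated and 0.212 with doxorubicin, which does not settle whether the numbers pair the samples, and the labels give no shared source. No replicate number occurs both with and without doxorubicin, so a fixed block was fitted only for the siRNA comparisons and the difference between responses. It changed no call among the 10 genes there. For the doxorubicin responses the block was a random effect, which changed no call among them but cannot separate doxorubicin from replicate number.

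The share of calls that were higher moved from 53.1% to 64.2% for doxorubicin with control siRNA on the log2 deposited scale, and from 44.7% to 30.3% with TAF3 siRNA. Uncalled siRNA effects changed sign on that scale and with median centring for PLK2 (-0.056) and CCNG1 (-0.0152) under doxorubicin and for GADD45A in the difference between responses (-0.090). With the mean of a gene's probes they did so for ZMAT3 under doxorubicin (0.071) and CDKN1A in the difference (0.057). Leaving out 1 array moved the untreated log2 change from -0.34 to 0.21 for CDKN1A, from -0.16 to 0.32 for GADD45A, from -0.0038 to 0.53 for PLK2 and from -0.18 to 0.18 for PLK3. Under doxorubicin the ranges were -0.059 to 0.47 for GADD45A, -0.076 to 0.25 for CCNG1 and -0.39 to 0.17 for PPM1D. For the difference they were -0.33 to 0.21 for CDKN1A, -0.14 to 0.39 for GADD45A, -0.50 to 0.035 for PLK2 and -0.17 to 0.69 for ZMAT3. The causes were not tested. Gene lists were also refitted without each array, an alternative chosen after seeing the data.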

Other observations

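The features whose centred log2 profiles over the 8 arrays lay nearest to a member were found by Euclidean distance, as a description. For CDKN1A they were 2 probes with no gene in the table used here (distances 0.583 and 0.611) and DEPP1 (0.679), whose doxorubicin changes were 1.74 log2 units in control and 2.36 in TAF3 siRNA cells, against a median distance of 3.28 over all features. For MDM2 the nearest feature was a probe with no gene listed (0.277), against a median distance of 1.73 over all features. The nearest named genes were the annexin ANXA4 (0.412), with changes of 1.24 and 1.37, and CCDC90B (0.453), with 1.27 and 1.22. For BTG1 they were TNFSF9 (0.418), a ligand of T cell co-stimulation, the histone gene H2BC21 (0.453) and CHMP1B (0.454), an ESCRT-III subunit. The median distance from BTG1 over all features was 2.02. For CHMP1B the doxorubicin changes were 0.62 and 1.59 log2 units. Within the set, GADD45A and BTG1 had the closest profiles (0.457).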
